A study of Mus musculus with 6 samples.

Results

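Cells sense oxygen through a chain that ends in the hypoxia-inducible factors (HIFs), and the results below follow 10 genes of that chain in dendritic cells grown from mouse bone marrow. The genes were taken by symbol and cover the oxygen-labile factors Hif1a and Epas1, the prolyl hydroxylases Egln1, Egln2 and Egln3, the asparaginyl hydroxylase Hif1an, the ubiquitin ligase component Vhl, and the target genes Vegfa, Bnip3 and P4ha2. They are 10 of the 19938 genes that had a probe set naming that gene alone, and where a gene had several such probe sets the one with the highest mean over the 6 arrays stood for it. No measured difference between the groups entered the choice of probe set.

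The UV-donor group came from female C57BL/6J mice injected with 2000000 bone marrow cells of a B6.SJL-Ptprca donor, a congenic strain with the CD45.1 antigen, whose shaved dorsal skin had been exposed to up to 8 kJ/m2 of ultraviolet radiation. The naive-donor group came from female C57BL/6J mice injected with the same number of cells of a naive B6.SJL-Ptprca donor. Irradiated mice were 6 to 10 weeks old, with other ages possible where the submitters say so. The same range was taken for the naive-donor group. The series' design text also mentions implanted prostaglandin E2 pellets, which the labels of neither group name. In both groups the recipients' marrow was grown for 5 days in 10 ng/ml of GM-CSF together with 10 ng/ml of IL-4, cytokines that turn marrow cells into dendritic cells. Cells that did not adhere were purified by their CD11c to a share above 95%. Each group has 3 preparations with 1 array each. Left unsaid by the labels is whether the recipients' own marrow was depleted, what share of the cultured cells came from the donor, and whether the 3 preparations of a group came from separate mice. The p-values below therefore set differences against the spread between preparations, which may be technical.

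In outline, when oxygen is present the EGLN enzymes (also called PHDs) hydroxylate prolines of the HIF alpha subunits, and the VHL protein then captures them for destruction by the proteasome. HIF1AN, also called FIH, hydroxylates an asparagine that keeps the factor from binding the coactivators p300 and CBP. When oxygen falls, the alpha subunits accumulate, pair with ARNT and switch on genes of glucose use, blood vessel growth, mitophagy and collagen processing, along with Egln1 and Egln3, which feed back on the pathway. In dendritic cells HIF-1 is known to accumulate also during activation and to support glycolysis, and glycolysis is the subject of the study's title. Most of this control acts on protein, and the arrays measured transcripts only.

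HIFs bind a short core sequence, ACGTG or GCGTG. Promoter windows from RefSeq (build GRCm38.p6, 250 bases before to 50 after an annotated start) were searched for both cores on both strands. A palindromic CACGTG counts on each strand. Of the 10 genes 9 had a window, and the first window of 6 of them held at least 1 match, or 66.7%, against 43.8% of all 32851 windows. Egln2 had 6 matches, Bnip3 had 5 and P4ha2 had 4, numbers reached or passed by 0.69%, 1.66% and 3.86% of all windows. The set of all windows includes later windows of the same gene and was not matched for base content. The first windows of Hif1an, Vhl and Vegfa held none, while a second window of Vegfa, at another annotated start, held 2. The hydroxylase and target genes with a match in their first window are shown here, because HIF is known to induce several of them. The only match of Egln3 lies near the far edge of its window, at -229 from the start. Each stretch of 60 bases lies upstream of the start, reads 5′ to 3′ on the gene's strand, and has the cores in capitals. A match describes the letters only.
Egln1 (chr8:124949290-124949349, minus strand): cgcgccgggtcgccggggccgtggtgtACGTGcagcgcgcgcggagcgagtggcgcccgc
Egln2 (chr7:27166811-27166870, minus strand): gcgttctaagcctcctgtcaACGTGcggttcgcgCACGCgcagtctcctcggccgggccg
Egln3 (chr12:54204065-54204124, minus strand): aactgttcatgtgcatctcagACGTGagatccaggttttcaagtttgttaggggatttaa
Bnip3 (chr7:138909582-138909641, minus strand): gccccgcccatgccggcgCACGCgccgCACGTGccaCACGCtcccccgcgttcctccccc
P4ha2 (chr11:54100809-54100868, plus strand): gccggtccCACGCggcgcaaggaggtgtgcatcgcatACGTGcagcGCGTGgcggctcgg

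All 10 genes were measured above the dim filter and none passed limma's test for a difference between the groups. Differences were small: 8 of the 10 genes differed by less than 0.06 on the log2 scale, in which 1 unit is a doubling. P4ha2 and Hif1a differed most, both with lower means in UV-donor cells. The call rule was a Benjamini-Hochberg adjusted p under 0.05 in limma's two-sided test, adjusted over all 13956 tested genes. By it 0 of the 10 were called, against 0.172% of all tested genes, which is 24 genes. The adjusted p-values of the 10 ran from 0.352 to 0.972. At an unadjusted p under 0.05, limma again gave 0 of the 10, against 15.1% of all tested genes (9.6% higher in UV-donor cells, 5.49% lower). With array medians centred, that all-gene split was 2052 higher and 302 lower. The groups of arrays did not overlap for 1 of the 10, Hif1a, against 21.8% of all tested genes (12.4% higher and 9.37% lower). The preparations are bulk samples, so fewer cells expressing a gene and less RNA per cell cannot be told apart.

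**Figure D1:**
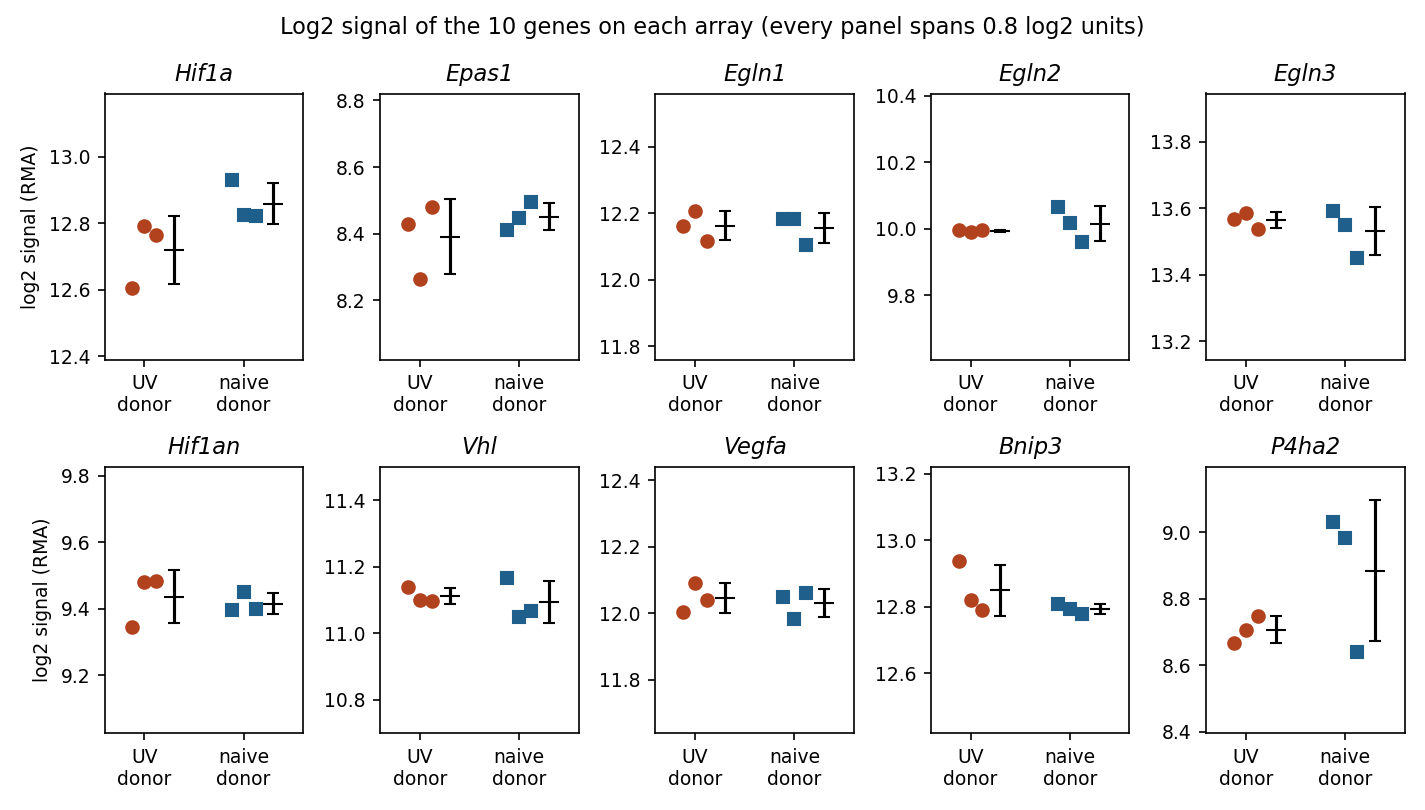
Log2 signal of each of the 10 genes on the 3 UV-donor arrays (circles, left) and the 3 naive-donor arrays (squares, right), in replicate order, with the mean and SD of each group beside the points. Every panel spans the same number of log2 units. The groups overlap in every panel but that of Hif1a, and in P4ha2 naive-donor replicate 3 sits at 8.64, below both other naive-donor arrays.

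The oxygen-labile subunits come first. Hif1a (probe set 10396421), the alpha subunit of HIF-1, had log2 signals of 12.60, 12.79 and 12.77 on the UV-donor arrays, against 12.93, 12.83 and 12.82 on the naive-donor arrays. Every UV-donor array was below every naive-donor array, and the nearest pair lay close together. The means were 12.72 ± 0.10 in the UV-donor group and 12.86 ± 0.06 in the naive-donor group (SD, n = 3 each). The difference of -0.14 (SE 0.06, 95% interval -0.29 to 0.0077) is a signal of 0.908 times, and limma gave a p of 0.0605 and an adjusted p of 0.352. UV-donor replicate 1 was the lowest array, and without it the difference was -0.08 (limma adjusted p = 0.612). That array also had the highest mean of proliferation markers, given below, whose part in the Hif1a values was not tested.

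Epas1 (probe set 10447317) encodes HIF-2 alpha, the other main oxygen-labile subunit. It gave 8.43, 8.26 and 8.48 in the UV-donor group and 8.41, 8.45 and 8.49 in the naive-donor group. The groups overlapped, and UV-donor replicate 2 was the lowest of all arrays. The difference was -0.06 (95% interval -0.21 to 0.09, limma adjusted p = 0.698), and it was 0.0040 without that array.

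The prolyl hydroxylases showed differences close to 0. Egln1 (probe set 10582712), the main hydroxylase setting HIF-1 alpha levels at normal oxygen, read 12.16, 12.21 and 12.12 on UV-donor arrays and 12.18, 12.18 and 12.11 on naive-donor arrays. Its group means were 12.16 ± 0.04 and 12.16 ± 0.05 for UV-donor and naive-donor cells (SD, n = 3 each), and the means differed by 0.0050 (95% interval -0.11 to 0.12, limma adjusted p = 0.972). This was the smallest difference of the 10.

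Egln2 (probe set 10561170) read 10.00, 9.99 and 10.00 in UV-donor cells and 10.07, 10.02 and 9.96 in naive-donor cells. The UV-donor arrays lay within 0.0071 of each other, inside the span of the naive-donor arrays. The difference was -0.02 (95% interval -0.13 to 0.09, limma adjusted p = 0.869). Egln3 (probe set 10400304), a hydroxylase that HIF itself induces strongly in many cells, read 13.57, 13.58 and 13.54 in UV-donor cells and 13.59, 13.55 and 13.45 in naive-donor cells. These groups overlapped too, and the means differed by 0.03 (95% interval -0.09 to 0.15, limma adjusted p = 0.805).

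The asparaginyl hydroxylase and the degradation step come next. Hif1an (probe set 10463380) read 9.34, 9.48 and 9.48 in UV-donor cells and 9.40, 9.45 and 9.40 in naive-donor cells, and the means differed by 0.02 (95% interval -0.10 to 0.15, limma adjusted p = 0.896). Vhl (probe set 10540790) read 11.14, 11.10 and 11.10 in UV-donor cells and 11.17, 11.05 and 11.07 in naive-donor cells, and the means differed by 0.02 (95% interval -0.10 to 0.13, limma adjusted p = 0.899). In both genes the groups overlapped.

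Among the target genes, Vegfa (probe set 10451198), the growth factor of blood vessels, read 12.00, 12.09 and 12.04 in UV-donor cells and 12.05, 11.98 and 12.06 in naive-donor cells. The difference was 0.01 (95% interval -0.10 to 0.13, limma adjusted p = 0.923), and the groups overlapped. Bnip3, a mitochondrial protein that marks mitochondria for autophagy, had 2 probe sets with the same transcripts listed. The brighter (probe set 10414269) read 12.94, 12.82 and 12.79 in UV-donor cells and 12.81, 12.79 and 12.78 in naive-donor cells, and the means differed by 0.06 (95% interval -0.07 to 0.18, limma adjusted p = 0.653). The other (probe set 10568785) read 12.18, 11.99 and 12.00 in UV-donor cells and 12.00, 11.99 and 11.99 in naive-donor cells, also a difference of 0.06 (95% interval -0.10 to 0.21). Both probe sets were highest on UV-donor replicate 1, and without that array the difference of the brighter was 0.01. Whether the probe sets share sequence with a copy of the gene was not checked.

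P4ha2 (probe set 10376074), a catalytic subunit of the enzyme that hydroxylates prolines of collagen, was the least even gene. It read 8.67, 8.70 and 8.75 in UV-donor cells and 9.03, 8.98 and 8.64 in naive-donor cells. The first 2 naive-donor arrays were above all UV-donor arrays, while naive-donor replicate 3 was below all of them. The means were 8.71 ± 0.04 in the UV-donor group and 8.88 ± 0.21 in the naive-donor group (SD, n = 3 each). The means differed by -0.18 (SE 0.10, 95% interval -0.40 to 0.04, limma adjusted p = 0.417). Without naive-donor replicate 3 the difference was -0.30 (limma adjusted p = 0.218), and without naive-donor replicate 1 it was -0.10 (limma adjusted p = 0.74).

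**Figure D2:**
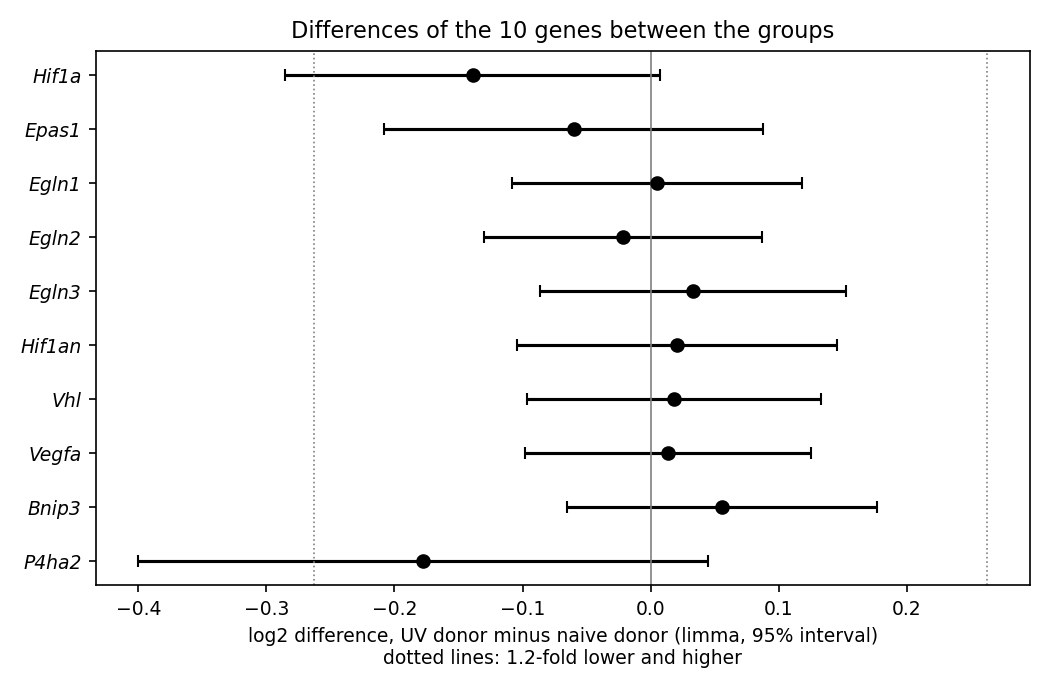
Log2 difference, UV-donor minus naive-donor, of each of the 10 genes, with limma's 95% interval as bars. Dotted lines mark 1.2-fold lower and higher. All 10 intervals include 0, and those of Hif1a and P4ha2 alone reach past a dotted line, both on the lower side.

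The intervals state which differences the values are compatible with, not how large a change the call rule could miss. For 8 of the 10 genes the 95% interval, not corrected for the number of genes, lay inside 1.2-fold in either direction. That of Hif1a ran from 0.821 to 1.01 times and that of P4ha2 from 0.758 to 1.03 times. In all 10 genes the difference was smaller than the wider of the within-group ranges. The means were higher in the UV-donor group for 6 genes and lower for 4 with the values as deposited, but Egln2 was higher with centred array medians and Hif1an lower with cyclic loess or quantile normalization. The median difference was 0.0093 for the 10 genes and 0.0016 for all tested genes, and the mean over the 10 was -0.03.

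The wider pathway was read through 7 lists of genes, named in full or in part below. They held 121 distinct genes, of which 114 had a probe set of their own and 111 passed the dim filter. Of these, limma called 0 (smallest adjusted p = 0.127), against 0.172% of all tested genes. Limma's unadjusted p was under 0.05 for 11 of them, 7 higher and 4 lower, or 9.91%, against 15.1% of all tested genes. Among the 7 higher are Plod2 and Flt4, whose naive-donor means lay below the dim threshold. Their UV-donor values carried them past the filter. Groups did not overlap for 17 of the 111, or 15.3%, against 21.8% of all tested genes. In value, 60 were higher in UV-donor cells and 51 were lower, with a median difference of 0.0077.

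**Figure D3:**
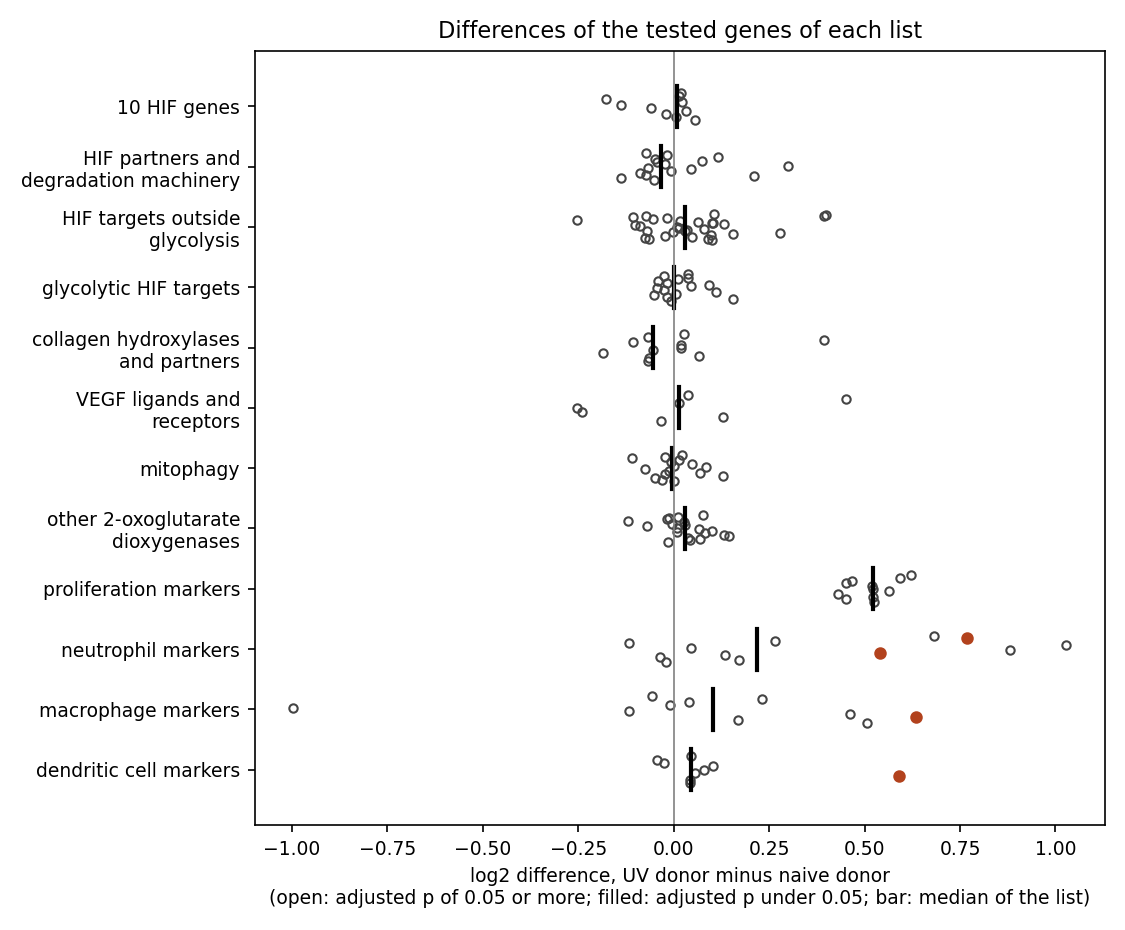
Log2 difference, UV-donor minus naive-donor, of each tested gene of each list, with the list's median as a bar and genes called at an adjusted p under 0.05 filled. The 10 HIF genes and the 7 pathway lists centre near 0 with no filled point, while the 11 proliferation markers lie between 0.43 and 0.62 and 4 of the genes in the marker lists are filled.

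HIF partners and degradation machinery were measured by 16 genes, 5 higher and 11 lower in value, with a median of -0.03 and a mean of 0.0071. The gene with the smallest p was Cited2, a HIF target whose protein competes with HIF for p300 and CBP. It read 11.56, 11.51 and 11.56 in UV-donor cells, against 11.35, 11.35 and 11.30 in naive-donor cells. All UV-donor arrays were above all naive-donor arrays. The difference of 0.21 (SE 0.05) did not pass over all tested genes (limma adjusted p = 0.127).

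Hif3a encodes another alpha subunit, some forms of which restrain the others. It read 8.67, 8.50 and 8.33 in UV-donor cells and 8.23, 8.34 and 8.04 in naive-donor cells, with overlapping groups and a difference of 0.30 (SE 0.10, limma adjusted p = 0.236). The HIF partner Arnt differed by -0.05 (limma adjusted p = 0.666) and its relative Arnt2 by -0.14 (limma adjusted p = 0.36). Cul2, the scaffold of the VHL ligase, differed by -0.09 (limma adjusted p = 0.587).

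The HIF targets outside glycolysis numbered 31, 19 higher and 12 lower in value, with a median of 0.03, and none was called. Nos2, the inducible nitric oxide synthase of activated myeloid cells, had the smallest p. It read 12.61, 12.95 and 12.81 in UV-donor cells and 13.13, 12.87 and 13.14 in naive-donor cells, a difference of -0.25 (SE 0.10, limma adjusted p = 0.297) with overlapping groups. Tfrc, the transferrin receptor, had the largest difference at 0.40 (SE 0.20, limma adjusted p = 0.393) and read 10.32, 9.76 and 9.61 in UV-donor cells and 9.38, 9.87 and 9.25 in naive-donor cells, highest in UV-donor replicate 1. The histone demethylase Kdm3a differed by 0.13 (limma adjusted p = 0.37).

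The glycolytic HIF targets numbered 16 and were split 8 to 8, with a median of 0.00024. Aldoc, an aldolase, had the smallest p, with 12.89, 12.73 and 12.72 in UV-donor cells and 12.67, 12.66 and 12.55 in naive-donor cells. Its groups did not overlap, and the difference of 0.16 (SE 0.06) had a limma adjusted p of 0.299. Pdk1, the kinase that holds pyruvate back from the mitochondria, differed by 0.11 and the phosphofructokinase Pfkp by 0.09, with limma adjusted p-values of 0.59 and 0.596.

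Around P4ha2 stood 11 collagen-modifying enzymes and partners, 5 higher and 6 lower in value, with a median of -0.05 and a mean of -0.0019. P4ha1, the paralogue of P4ha2 and itself a HIF target, differed by -0.05 (95% interval -0.18 to 0.08, limma adjusted p = 0.687). The lysyl hydroxylase Plod2 differed by 0.39 (SE 0.16, limma adjusted p = 0.303), with 7.12, 6.68 and 6.96 in UV-donor cells and 6.75, 6.66 and 6.16 in naive-donor cells. Its naive-donor mean lay below the dim threshold, so its UV-donor values carried it past the filter. Plod2 is 1 of the 5 higher genes, and the list's mean includes this difference, the largest of the list. P3h3, a member of the prolyl 3-hydroxylase family, differed by -0.18 and the lysyl hydroxylase Plod1 by -0.11 (limma adjusted p = 0.323 and 0.401).

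Ligands and receptors of the VEGF family had the largest median size of difference among the 7 lists, 0.13 against 0.06 for all tested genes. The 0.13 is the value of Flt4, whose UV-donor values carried it past the dim filter. The tested members numbered 7, with 4 above and 3 below 0 and a median difference of 0.01. Pgf, placental growth factor, read 8.03, 8.63 and 8.43 in UV-donor cells and 8.02, 7.93 and 7.79 in naive-donor cells. Its groups did not overlap, though UV-donor replicate 1 nearly met naive-donor replicate 1, and the difference was 0.45 (SE 0.14, limma adjusted p = 0.199).

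Nrp1, a co-receptor for VEGF and a surface protein of dendritic cells, read 8.70, 8.73 and 8.59 in UV-donor cells and 9.11, 8.91 and 8.75 in naive-donor cells. These groups did not overlap either, and the difference was -0.25 (SE 0.09, limma adjusted p = 0.248). The VEGF receptor Flt1 differed by -0.03 (95% interval -0.30 to 0.23), Kdr by -0.24 (limma adjusted p = 0.28) and the lymphatic receptor Flt4 by 0.13 (limma adjusted p = 0.249). The naive-donor mean of Flt4 also lay below the dim threshold.

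Beside Bnip3, the mitophagy list held 16 tested genes split 8 to 8, with a median of -0.0034. Bnip3l, the paralogue also called Nix, read 13.71, 13.66 and 13.67 in UV-donor cells and 13.70, 13.69 and 13.70 in naive-donor cells, a difference of -0.02 (95% interval -0.12 to 0.08). The autophagy initiator Becn1 differed by 0.13, the cargo receptor Sqstm1 by -0.11 and the ATG8 protein Gabarapl2 by 0.08, with limma adjusted p-values of 0.322, 0.365 and 0.413. The groups of these last 3 genes did not overlap. In the whole list of 16, groups did not overlap for 2 genes higher and 2 lower, against 21.8% of all tested genes.

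The EGLN enzymes and HIF1AN belong to the oxygen-using 2-oxoglutarate dioxygenases, and 20 other members of that class, mostly histone and DNA demethylating enzymes, were measured. In value 14 were higher and 6 lower, with a median of 0.03, and the smallest limma adjusted p was that of Kdm3a given above. Kdm2b differed by 0.14 (limma adjusted p = 0.429) and Kdm4b by 0.10 (limma adjusted p = 0.427). Array medians, when centred, moved the medians of all tested genes and of this list up by a like amount, to 0.04 and 0.06.

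**Figure D4:**
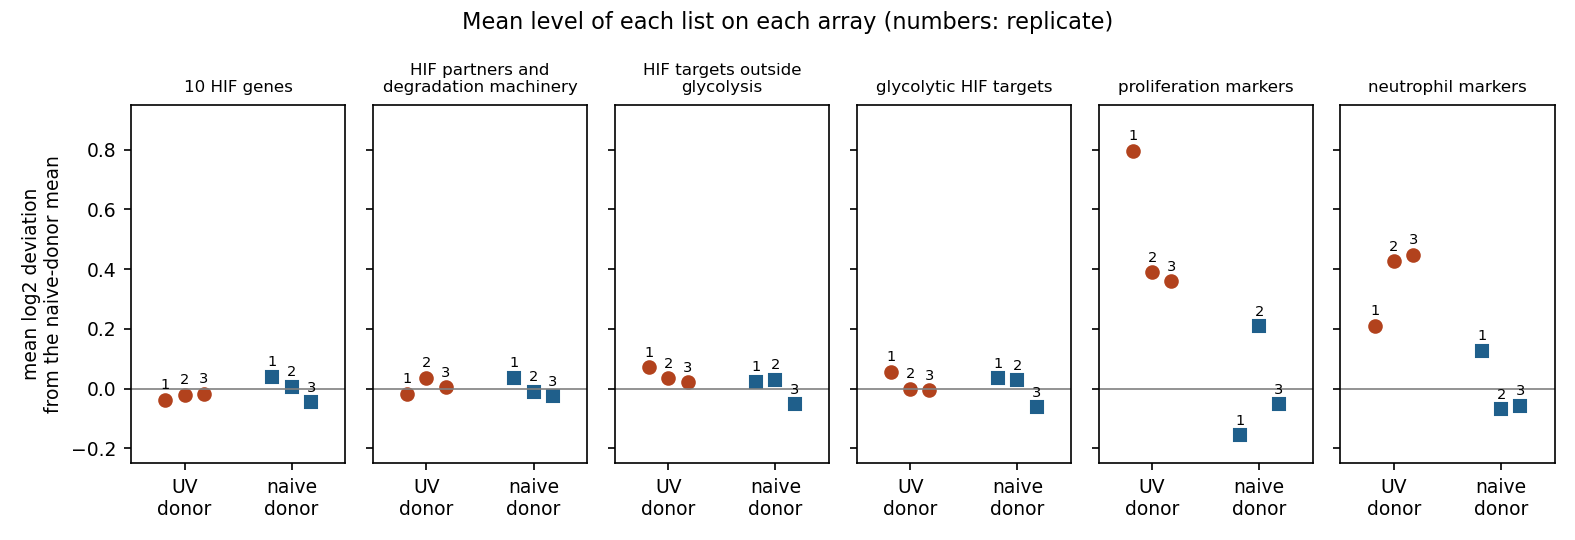
Mean log2 deviation from the naive-donor mean over the tested genes of a list, on each UV-donor array (circles, left) and naive-donor array (squares, right), numbered by replicate. The 10 HIF genes stay between -0.05 and 0.04 on all 6 arrays, whereas the proliferation markers run from 0.36 to 0.80 on UV-donor arrays and from -0.16 to 0.21 on naive-donor arrays.

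Over all probe sets, arrays correlated at a Pearson r of 0.995 to 0.997 within groups and 0.995 to 0.996 between groups. The spread of values on an array differed by group, with interquartile ranges of 3.71 to 3.75 on UV-donor arrays and 3.61 to 3.68 on naive-donor arrays. With quantile normalization, which makes the spreads equal, limma again called 0 of the 10 HIF genes. Itgax, which encodes the CD11c used for enrichment, read 13.73 ± 0.02 in UV-donor cells and 13.77 ± 0.02 in naive-donor cells (SD, n = 3 each), and 9 of 10 dendritic cell markers passed the dim filter, Flt3 being below it. All 11 proliferation markers were higher in value in the UV-donor group, with the smallest p for Aurka (0.53) and Cdc20 (0.52), with 0 called over all tested genes and 11 at an unadjusted limma p under 0.05. Of the 12 neutrophil markers 9 were higher and 3 lower in value, with Ltf (0.54) and S100a8 (0.77) called. Their mean ran from 0.21 to 0.45 on UV-donor arrays and from -0.07 to 0.13 on naive-donor arrays. The mean of the 10 macrophage markers ran from 0.02 to 0.13 and from -0.02 to 0.02 on those arrays, with C1qb (0.63) called and Adgre1 (0.51) not. They did not move one way: 6 were higher and 4 lower in value, and Cd5l, chosen after its values were seen, had the largest difference at -0.996 (limma adjusted p = 0.0627), with groups that did not overlap. The dendritic cell markers ran from 0.09 to 0.11 and from -0.04 to 0.04, with Cd209a (0.59) called and H2-Ab1 (0.10) not. Of the 9 tested, 7 were higher and 2 lower in value. The largest difference was that of Cd209a, and the median of the list was 0.045. All 4 of these calls (Ltf, S100a8, C1qb and Cd209a) ended with the replicate block, with all probe sets, and without UV-donor replicate 2, UV-donor replicate 3 or naive-donor replicate 1. Cd209a alone was called without naive-donor replicate 3, and S100a8 was not called without naive-donor replicate 2. Of 10 endothelial and stromal markers 6 passed the filter, 2 higher and 4 lower in value, at -0.08 to -0.04 and -0.01 to 0.01. Their smallest p-values were those of Pecam1 (0.23) and Col3a1 (-0.19). Of 8 erythroid markers 4 had a probe set of their own and 3 passed, at 0.02 to 0.22 and -0.10 to 0.10. The smallest p-values were those of Tfrc (0.40) and Epor (-0.09). Of these 3 markers only Tfrc was higher in value and 2 were lower, with a median of -0.03. The part of these cell types in the HIF gene values was not tested.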

How the data were processed

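The series holds 6 Affymetrix whole-transcript arrays, 3 per group. The authors deposited 1 log2 value per probe set, and the submitters' processing notes name RMA, oligo and limma. RMA usually includes quantile normalization between arrays. That the deposited values are log2 was read from their range. A build, tool versions and scan batches are not given in the sources used here, and no further normalization was applied.

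Symbols came from the platform annotation, updated through Entrez identifiers with RefSeq. Of 35556 probe sets, 21789 had 1 symbol, 1621 had several and 12146 were not listed, and those with several or none were left out. A gene whose mean fell under the 30th percentile of all genes (6.57 on the log2 scale) was left out as dim, leaving 13956. The comparison used lmFit and eBayes of limma 3.58.1 (R 4.3.3), two-sided, with Benjamini-Hochberg adjustment over all of these and a call at an adjusted p under 0.05. The eBayes step draws the variance of each gene toward a value shared by all tested genes. The fit was tested on simulated data. With 3 arrays a group, no exact permutation p can be under 0.1, and the number of arrays limits the precision. Figures were drawn with matplotlib 3.10.9.

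The 10 genes, the lists and the markers were chosen with earlier results of these data known. Named from each pathway list were the 3 genes of smallest p, the gene with the largest difference and close partners of the 10, and from each marker list the 2 of smallest p. Alternatives were a replicate block, other dim filters, centring of array medians, quantile and cyclic loess normalization, a robust prior with intensity trend, array weights, averaged probe sets, all probe sets, and each array left out.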

Additional observations from a re-analysis of the deposited data

How the results depend on the processing

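None of the 10 genes was called under any of the 16 alternatives, the smallest limma adjusted p being 0.218. Of 160 differences recomputed, 59 equalled the reported ones, mostly by construction since those settings change only the spread or the genes tested. Of the other 101, 14 changed sign, all with values within 0.03 of 0. With single arrays left out, Hif1a ran from -0.17 to -0.08, Epas1 from -0.10 to 0.0040, Hif1an from -0.0031 to 0.067, Vhl from -0.0035 to 0.054, Egln1 from -0.021 to 0.027, Egln2 from -0.049 to 0.0044, Egln3 from -0.0070 to 0.064, Vegfa from -0.010 to 0.034, Bnip3 from 0.012 to 0.085 and P4ha2 from -0.30 to -0.10. Hif1an (-0.0020), Egln1 (-0.017) and Vegfa (-0.0093) also changed sign without UV-donor replicate 2. Hif1an was -0.0030 with cyclic loess and -0.026 with quantile normalization, Egln1 -0.021 with array weights and Egln2 0.013 with centred medians. The count over all genes, 24, was 43 with centred medians, 45 with a robust prior and intensity trend, 43 with array weights and 0 with all probe sets (by limma's unadjusted p under 0.05, 1801 were higher, 1708 lower). It was 1 without UV-donor replicate 2, UV-donor replicate 3 or naive-donor replicate 1, 3 without naive-donor replicate 3, and at most 32 with single arrays left out. The cause was not tested. The replicate block left 0 limma calls in all and 0 of the 10 (by limma's unadjusted p under 0.05, 1286 were higher, 666 lower). Deviations of same-numbered arrays correlated at -0.13, -0.22 and 0.15, and 1 of 6 arrays correlated best with its own number. With 3 arrays a group, these values cannot tell whether the numbers pair the arrays.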
